A study of Saccharomyces cerevisiae with 9 samples.

Results

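The wild-type (WT) transcriptome of log-phase budding yeast was described by abundance, from the level and rank of every gene in the 3 WT libraries among the 9 libraries of the series. These libraries were chosen by their genotype label, not by any measured value. The cells were a prototrophic Saccharomyces cerevisiae strain of the CEN.PK background, a laboratory lineage that can make its own amino acids and bases. They carried no deletion, and per the labels' protocols they grew to log phase in minimal synthetic medium with 2% glucose, were washed with fresh medium and were frozen. For each library, mRNA was isolated with oligo(dT) beads out of 2 µg RNA and copied with random primers. The series also holds strains lacking PAH1 or DGK1, 3 libraries each, which were not used here. Whether the numbered WT replicates were grown as separate cultures is not in the labels, so the spread between them may be technical. With 1 group there is nothing to set the WT against, and an exact sign permutation over 3 libraries cannot reach a two-sided p below 0.25, so the values below are a description without tests.

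Yeast given glucose takes it up through low-affinity transporters, breaks it down by glycolysis and ferments most of the pyruvate to ethanol, even with oxygen present. Glucose represses the genes for other sugars, for respiration and for making sugar from non-sugar carbon. Many enzymes exist as isozymes, encoded by gene pairs of which one member serves growth on glucose and the other serves other conditions. Fast growth needs many ribosomes, so ribosomal protein mRNAs are abundant. In minimal medium a prototroph must also make every amino acid itself.

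Levels are FPKM, the authors' read counts per gene divided by the exonic length and by the library total. Scaling by length lets levels be set side by side between genes, within the limits of the lengths used and of the differences between libraries given below. The table held 7122 genes, of which 6004 are protein-coding in RefSeq. Total counts were 12616347, 9603584 and 9205454 in WT replicates 1, 2 and 3. The FPKM columns summed to 1257070, 1101490 and 1124380, so a given FPKM is a slightly smaller share of the whole in replicate 1. Replicate 1 also stood apart in its profile. Chi-square per degree of freedom over gene counts was 50.4 between replicates 1 and 2 and 37.6 between replicates 1 and 3, against 3.41 between replicates 2 and 3. Many values are therefore given library by library; the others are means over the 3 libraries or ratios of such means. The TDH3 mean and the median spread are also given without replicate 1.

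TDH3 was the most abundant mRNA in every library. It encodes the main isozyme of glyceraldehyde-3-phosphate dehydrogenase, the NADH-forming step of glycolysis, and lies on chromosome VII from 882812 to 883810 in build R64. Its level was 22900, 16570 and 17150 FPKM in replicates 1 to 3, a mean of 18873 ± 3499 FPKM (SD, n = 3). Without replicate 1 the mean was 16860 FPKM. TDH3 alone held 1.63% of the summed mean FPKM.

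RPL41A and RPL41B, which both encode the 25-residue ribosomal protein L41, were at ranks 2 and 4. RPL41A had 16577, 10910 and 12498 FPKM and RPL41B had 15592, 8321 and 9476 FPKM in replicates 1 to 3. Both were highest in replicate 1. FBA1, the aldolase that splits fructose bisphosphate, was at rank 3 with 14091, 11962 and 12357 FPKM. These 4 genes were at ranks 1 to 5 in every library.

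The other genes among the 25 with the highest means came from few functions. In all, 12 of the 25 encoded cytosolic ribosomal proteins, 6 glycolytic enzymes, 2 cell wall proteins and 2 enzymes of ethanol production. Besides TDH3 and FBA1, the glycolytic ones were ENO2 (enolase, 7344 ± 864 FPKM), TDH2 (6251 ± 585 FPKM), TPI1 (triose phosphate isomerase, 6135 ± 1103 FPKM) and GPM1 (phosphoglycerate mutase, 5037 ± 352 FPKM). Another gene, YKL153W, overlaps 62.9% of GPM1, so the level of GPM1 is less certain. ADH1, which reduces acetaldehyde to ethanol, was at rank 9 with 6858 ± 1089 FPKM, and PDC1, which makes acetaldehyde from pyruvate, was at rank 12 with 6303 ± 198 FPKM. The wall mannoproteins CCW12 and CWP2 had 9397 ± 2431 and 4074 ± 692 FPKM. The ribosomal ones beside the RPL41 pair included RPS20, RPS31, RPL38, RPS12, RPL32, RPL30, RPL3, RPS30A and RPS10A, between 4000.1 and 6849 FPKM.

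The remaining 3 of the 25 belonged to none of the function classes listed. PMP2, a small proteolipid that associates with the plasma membrane proton pump, had 5118, 4253 and 4253 FPKM in replicates 1 to 3. YDR524C-B and YDR524W-C, neighbouring short genes on chromosome IV with no known function, were at ranks 5 and 6. YDR524W-C ends at 1489492 and YDR524C-B starts at 1489598. No strand-marking step is named, and whether reads of either gene stem from RNA of the other was not tested. YDR524C-B, of 201 bases, had 11872, 9621 and 9987 FPKM, and YDR524W-C, of 90 bases, had 13082, 7189 and 8653 FPKM. Both short genes kept at least rank 7 in every library. The length used by the authors for such genes is the reading frame alone, so their FPKM depends heavily on it. With 100 bases added to every length, an alternative chosen after seeing the data, RPL41A moved to rank 8, RPL41B to rank 13 and YDR524W-C to rank 14, while TDH3 and FBA1 stood at ranks 1 and 2.

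**Figure D1:**
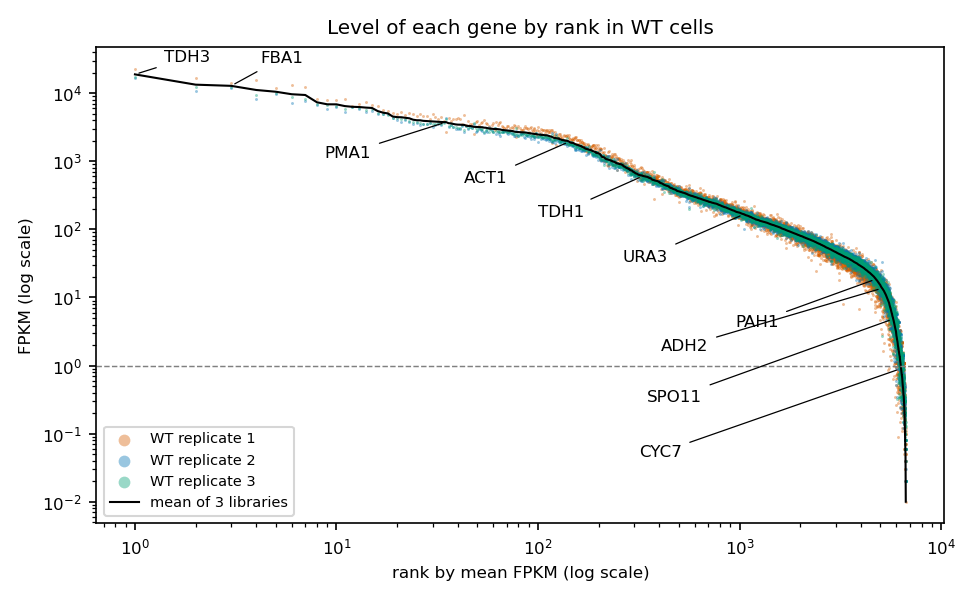
FPKM of each gene in each WT library (coloured points) and its mean over the 3 libraries (black line) against its rank, both axes on log scales; points at 0 are not drawn and the dashed line marks 1 FPKM. Levels run from TDH3 at 18873 FPKM through URA3 at rank 1051 and PAH1 at rank 4748 to CYC7 at rank 6331.

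The RNA was concentrated in few genes. The top 10 held 9.19% of the summed mean FPKM, the top 100 held 35.5% and the top 1000 held 78.7%. It took 188 genes to reach 50% of the sum, 2181 to reach 90% and 4857 to reach 99%. The 233 genes at 1000 FPKM or more, 3.27% of all genes, held 54.6% of the sum. The median gene had 35.7 FPKM, or 44.3 FPKM among protein-coding genes.

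Cytosolic ribosomal proteins were the dominant class. Their 138 genes held 33.1%, 28.6% and 29.6% of the summed FPKM in replicates 1 to 3, a mean of 30.4 ± 2.35% (SD, n = 3). The share was highest in replicate 1, the library in which short genes were relatively high. Of the 138 genes, 128 had at least 1000 FPKM and 62 were among the 100 most abundant of the 7122 genes. Since these genes are short, their share of read counts was smaller, at 15.9 ± 2.14%.

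The ribosome holds most of its proteins in equal numbers, the stalk proteins P1 and P2 being exceptions, and most are encoded by gene pairs. The 138 genes encoded 79 proteins, counting ASC1, of which 59 had 2 genes and 20 had 1. Genes without a copy had a median of 3806 FPKM. Members of pairs had a median of 2265 FPKM each, and the summed level of a pair had a median of 4208 FPKM. The SD of log2 levels was 0.86 over single genes and 0.58 once copies were summed. Summed per protein, levels therefore lay closer together than per gene.

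Most copies of a ribosomal protein were at similar levels, with a median difference of 1.35-fold, but 11 of 59 pairs differed by over 2-fold. Of the 138 genes, 12 have under 80% of their 100-base windows unique in the genome and 20 overlap another gene. How reads matching several places were counted is not given, so the split between such copies is uncertain. The most uneven pair was RPL15, where RPL15B had 93.9, 84.3 and 86.4 FPKM in replicates 1 to 3, and RPL15A was 42.7-fold higher on means. RPS9B stood 6.12-fold above RPS9A and RPS14A 5.78-fold above RPS14B. RPL15B was the lowest ribosomal protein gene of all. At the other end, summed levels ran from 1315 FPKM for RPP0, the stalk base, to 24458 FPKM for RPL41.

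Glycolysis came next, with 5.75 ± 0.201% of the summed FPKM in 20 genes (SD, n = 3). By read counts, which favour long genes, its share was 7.28 ± 0.687%. Amino acid synthesis held 4.20 ± 0.490% by FPKM and 6.95 ± 0.492% by read counts. By FPKM, cell wall proteins held 2.72 ± 0.0269%, translation factors 2.23 ± 0.0525% and histones 1.88 ± 0.0427%. The respiratory chain and ATP synthase held 1.86 ± 0.0465% and ethanol and acetate metabolism 1.39 ± 0.0141%. By read counts that order was the reverse, with 1.15 ± 0.0284% for the respiratory chain and 2.21 ± 0.127% for ethanol and acetate. In all, the 718 genes of the 19 function classes held 58.7 ± 1.74%. The order of the first 3 classes by FPKM was the same in all 3 libraries. By read counts amino acid synthesis was above glycolysis in replicates 2 and 3, with 7.21% against 6.81% and 7.26% against 6.95%.

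**Figure D2:**
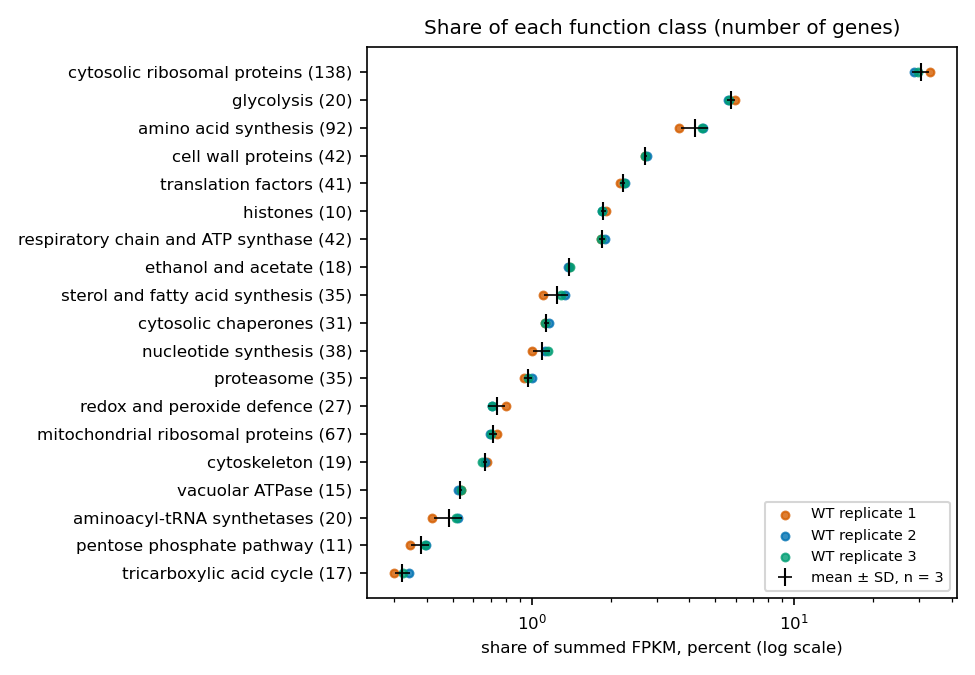
Share of the summed FPKM held by each of 19 function classes, in percent on a log scale, with 1 point per WT library and a bar for the mean ± SD (n = 3); the number of genes is in parentheses. Cytosolic ribosomal proteins held 28.6% to 33.1%, and glycolysis followed with a mean of 5.75%.

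Translation factors were led by TEF2 (3005 ± 325 FPKM) and TEF1 (2518 ± 386 FPKM), which encode the same elongation factor, EFB1 (2668 ± 184 FPKM) and YEF3 (2511 ± 137 FPKM), the elongation factor particular to fungi. The copies TEF1 and TEF2 share most of their sequence: only 13.5% of their 100-base windows occur once in the genome. How reads matching several places were counted is not given in the sources used here, so the split between such copies is uncertain. Histones were led by HHT2 (3426 ± 103 FPKM) and HTB1 (3297 ± 471 FPKM). The variant histone HTZ1 (306.0 ± 26.1 FPKM) and the linker histone HHO1 (253.9 ± 13.1 FPKM) were the lowest of their class.

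Amino acid synthesis was led by MET6, methionine synthase, with 2475, 3517 and 3618 FPKM in replicates 1 to 3. GLN1, glutamine synthetase, had 2838, 3037 and 3065 FPKM, and ILV5 of the branched-chain pathway had 2776, 2829 and 2824 FPKM. SAM2 and MET17 followed at 2697 ± 385 and 2460 ± 53.9 FPKM. MET6 was lowest in replicate 1, where long genes were relatively low. The bottom of this class was ARO9 with 1.13, 1.22 and 1.41 FPKM and GDH3 with 3.69, 3.18 and 2.06 FPKM. ARO9 is an aromatic aminotransferase of amino acid breakdown and GDH3 a glutamate dehydrogenase of other carbon sources.

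GCN4, the activator of amino acid synthesis genes whose own mRNA is under translational control, was at rank 81. It had 3114, 2509 and 2401 FPKM, more than any gene of nucleotide synthesis, whose highest was ADK1 at 1298 ± 136 FPKM. The Gcn4 core motif TGACTC was found on either strand in the 300 bases before the start codon of 51.1% of the 92 amino acid synthesis genes, against 7.76% of all 5983 protein-coding genes examined. A match is a string of letters and not a shown binding site.

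Respiration genes were far from silent. CYC1, cytochrome c, had 1911, 1430 and 1512 FPKM in replicates 1 to 3, and ATP2, the beta subunit of ATP synthase, had 1027, 1040.0 and 1004 FPKM. QCR6 and COX8, small subunits of complexes III and IV, averaged 1127 ± 100 and 1029 ± 73.1 FPKM. The class median was 474.7 FPKM, above the median of the tricarboxylic acid cycle at 224.3 FPKM. QCR8, a subunit of complex III with all of its windows unique and no overlap, was the third lowest member, with 5, 8 and 4 counts, or 1.39, 2.92 and 1.52 FPKM. KRS1, the cytosolic lysyl-tRNA synthetase, was similarly far below its class, with 13.6, 10.9 and 14 FPKM, against a class median of 271.3 FPKM. The reads come from CEN.PK cells and the positions from the R64 reference, and what part strain differences have in such values was not tested.

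Subunits of some complexes were close to equal in level. The 8 subunits of the chaperonin CCT, which folds actin and tubulin, lay between 203.1 and 252.8 FPKM, a ratio of 1.24. FAS2 and FAS1, the subunits of fatty acid synthase, differed by 1.04-fold, and IDH2 and IDH1 by 1.06-fold. The 14 subunits of the 20S proteasome spanned a ratio of 2.31. The 7 subunits particular to RNA polymerase II spanned a ratio of 2.86 on means, with RPB4 highest and RPO21 lowest. In single libraries that span was 4.77, 2.25 and 2.38, so it was widest in replicate 1. ATP2 was 2.24-fold above ATP1.

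Among 62 families of isozymes or close relatives, eIF5A was left out of the counts because 1 of its members lies wholly inside another gene. The highest member held at least 90% of the family's summed FPKM in 21 of the other 61 families, at least 75% in 35 and under 60% in 13. The counts keep families whose members share sequence. Only 13.5% of the windows of TEF2 and TEF1, 68.2% of those of SSB2 and SSB1 and 75.6% of those of LYS20 are unique. The families of these genes are among those under 60%. EFT2 and EFT1 (16.5%), TIF1 and TIF2 (25.9%) and SSA2 (54.0%) are limited in the same way. How reads matching several places were counted is not given, so the split within such families is uncertain. Since the highest member was chosen by its mean, its lead is a description. It was higher than the next in every library in 59 families, and the ranges of the libraries did not overlap in 55.

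The glyceraldehyde-3-phosphate dehydrogenases are near copies at unequal levels. TDH2 had 6906, 5782 and 6064 FPKM and TDH1 had 676.5, 569.8 and 575.5 FPKM in replicates 1 to 3. TDH3 thus held 73.2 ± 1.70% of the family. Along the whole coding sequence TDH2 differs from TDH3 at 42 positions and TDH1 at 111. Of the windows used for uniqueness, 91.8% in TDH3, 87.2% in TDH2 and 95.4% in TDH1 occur once in the genome. The rule for reads matching several places is not given, so the split between these copies is less certain. In the stretch of 120 bases from base 52 to 171, TDH2 differs from TDH3 at 13 positions and TDH1 at 29. Differences are denser in this stretch than over the whole 999 bases, so it is a favourable case for telling reads apart. Capitals mark bases that differ from TDH3, read 5′ to 3′ on the coding strand of build R64, for TDH3 at chrVII:883640-883759 (minus strand), TDH2 at chrX:454511-454630 (minus strand) and TDH1 at chrX:338322-338441 (plus strand).
TDH3: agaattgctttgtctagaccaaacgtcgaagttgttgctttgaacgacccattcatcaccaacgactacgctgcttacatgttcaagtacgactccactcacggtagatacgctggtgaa
TDH2: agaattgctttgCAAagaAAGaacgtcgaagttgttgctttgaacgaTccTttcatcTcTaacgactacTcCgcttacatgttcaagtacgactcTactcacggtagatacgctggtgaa
TDH1: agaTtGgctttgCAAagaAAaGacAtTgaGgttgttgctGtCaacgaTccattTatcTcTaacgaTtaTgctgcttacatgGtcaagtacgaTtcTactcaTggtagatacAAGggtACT

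Glycolytic and fermentative steps each had a dominant isozyme. Hexokinase 2, HXK2, had 757.1, 767.3 and 745.7 FPKM and held 92.4 ± 0.383% of its family, while HXK1, used on other carbon sources, had 7.99, 6.64 and 6.33 FPKM. ENO2 held 82.7 ± 0.395% over ENO1. CDC19, the pyruvate kinase of growth on glucose, stood 142.5-fold above PYK2, and GPM1 112.6-fold above GPM3. CDC19 and GPM1 each overlap another gene, so these ratios are less certain. PDC1 stood 253.7-fold above PDC5, which had 27.6, 22.3 and 24.6 FPKM. PFK1 and PFK2 form 1 enzyme together and differed by 1.23-fold.

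The alcohol dehydrogenases ran over a wide range. ADH1 had 8037, 5888 and 6649 FPKM, ADH3 (mitochondrial) 596.8, 438.0 and 511.0 FPKM, and ADH4 461.8, 537.1 and 356.3 FPKM. ADH2, the isozyme that oxidises ethanol and is repressed by glucose, had 13.4, 15.4 and 12.1 FPKM. ADH7 had 0 counts in all 3 libraries, a value that leaves room for as many as 3 counts per library. In both ADH1 and ADH2, 90.5% of the 100-base windows occur once in the genome.

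**Figure D3:**
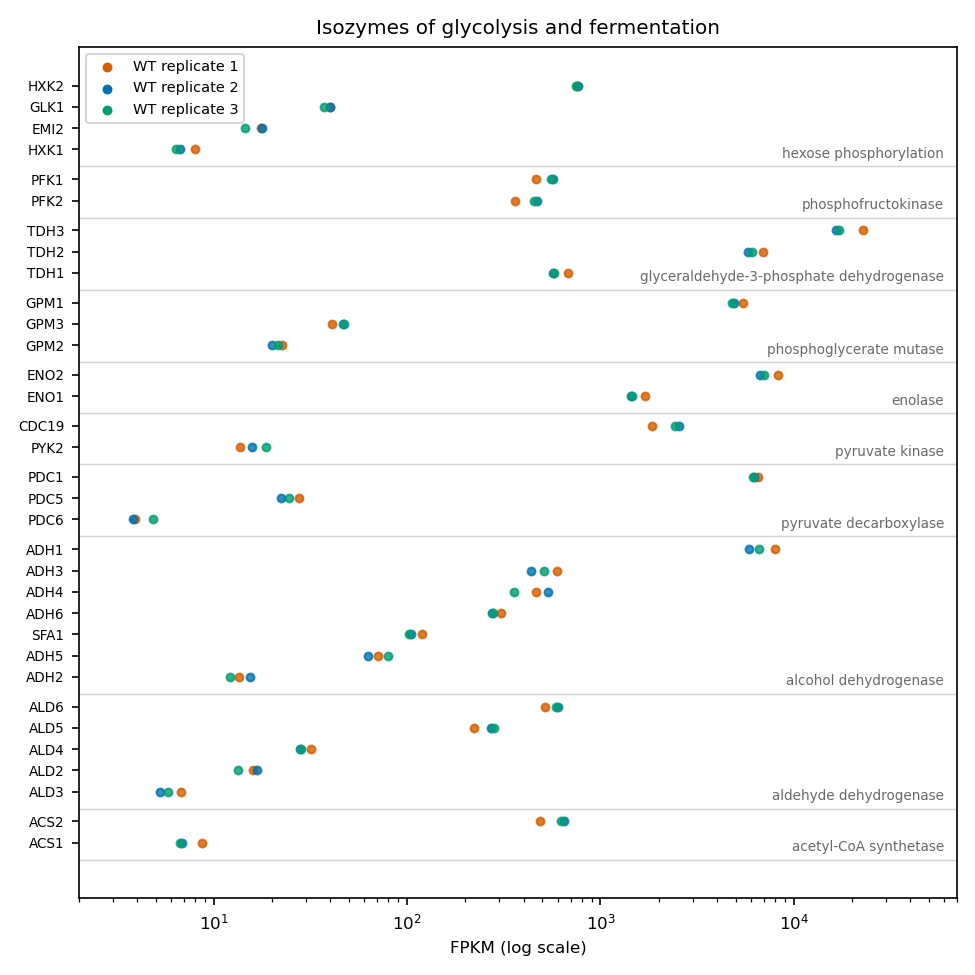
FPKM on a log scale of the isozymes of glycolysis, ethanol and acetate metabolism, with 1 point per WT library and grey lines between families; ADH7, at 0 in all libraries, is not drawn. The highest member of most families lies 1 or more decades above the lowest, as ADH1 (5888 to 8037 FPKM) does above ADH2 (12.1 to 15.4 FPKM).

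The 300 bases before the start codon are shown for ADH1 and ADH2, the pair with the same reaction and opposite levels, and for TDH3. Sequences run 5′ to 3′ on the gene's strand in build R64, for ADH1 at chrXV:160595-160894 (minus strand), ADH2 at chrXIII:874338-874637 (minus strand) and TDH3 at chrVII:883811-884110 (minus strand). Capitals mark matches, on either strand, to the TATA element, which was searched for as TATAAA, and to the core of sites for Gcr1, the activator of glycolytic genes, which was searched for as CTTCC. They also mark the stress response element, read here as the letters CCCCT, and the PAC element of ribosome biogenesis genes, read as GATGAG. The cores for Rap1 and Gcn4 were searched for as well, and adjoining matches may overlap.
ADH1: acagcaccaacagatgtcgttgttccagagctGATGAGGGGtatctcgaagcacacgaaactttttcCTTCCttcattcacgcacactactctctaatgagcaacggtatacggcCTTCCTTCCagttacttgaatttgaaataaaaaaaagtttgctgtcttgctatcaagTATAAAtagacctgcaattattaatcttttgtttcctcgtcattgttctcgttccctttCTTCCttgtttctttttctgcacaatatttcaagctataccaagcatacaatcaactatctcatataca
ADH2: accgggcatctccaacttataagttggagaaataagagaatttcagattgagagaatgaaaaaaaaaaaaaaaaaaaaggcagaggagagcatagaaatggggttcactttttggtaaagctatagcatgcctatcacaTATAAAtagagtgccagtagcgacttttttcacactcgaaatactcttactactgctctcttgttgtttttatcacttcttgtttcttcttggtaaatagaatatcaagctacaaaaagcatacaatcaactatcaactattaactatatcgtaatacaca
TDH3: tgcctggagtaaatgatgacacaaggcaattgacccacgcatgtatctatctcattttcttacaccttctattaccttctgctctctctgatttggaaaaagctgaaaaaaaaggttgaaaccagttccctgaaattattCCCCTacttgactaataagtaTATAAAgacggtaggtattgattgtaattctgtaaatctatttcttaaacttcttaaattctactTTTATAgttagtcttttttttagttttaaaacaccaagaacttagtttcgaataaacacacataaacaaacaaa

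All 3 windows hold TATAAA, 128 bases before the start codon in ADH1, 161 in ADH2 and 139 in TDH3. The ADH1 window holds CTTCC at 4 places and the other 2 windows at none. TATAAA was found in 80% of the 20 glycolytic genes, in 28.3% of the 138 ribosomal protein genes and in 48.2% of all 5983. CTTCC, a short motif, was found in 65% of glycolytic genes and 45.6% of all.

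Around the fermentative core, acetate and glycerol enzymes were moderate. The cytosolic aldehyde dehydrogenase ALD6 had 515.0, 599.9 and 587.7 FPKM and the mitochondrial ALD5 had 220.4, 270.8 and 282.8 FPKM. ALD4, another mitochondrial form, had 31.8, 28.0 and 28.2 FPKM, below ALD5 in every library. ACS2, the acetyl-CoA synthetase used with glucose, stood 79.2-fold above ACS1. The glycerol enzymes GPD2 and GPD1 differed by 1.36-fold.

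Hexose transporters were led by HXT3 and HXT1, which are low-affinity forms. HXT3 had 1003, 1044 and 1062 FPKM, HXT1 304.1, 388.4 and 377.5 FPKM, and HXT4, a high-affinity form, 239.2, 266.7 and 228.4 FPKM. HXT2, another high-affinity form, had 15, 15.4 and 12 FPKM. HXT6 and HXT7, also high-affinity, had 2.17, 1.4 and 1.08 FPKM and 1.06, 1.28 and 1.27 FPKM, but only 5.08% of the windows of each occur once in the genome, so their reads may be lost or shared. HXT10, HXT13, HXT14, HXT16 and HXT17 averaged under 1 FPKM.

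In the pentose phosphate pathway, which supplies NADPH, the main isozymes GND1, TAL1, TKL1 and SOL3 held between 98.7% and 99.8% of their families. Among enzymes of the tricarboxylic acid cycle and its relatives, CIT2, the peroxisomal citrate synthase, had 355.3, 407.7 and 340.4 FPKM, above the mitochondrial CIT1 with 166.0, 159.4 and 146.2 FPKM. MDH1 and MDH3, malate dehydrogenases, differed by 1.09-fold. MDH1 was above MDH3 in 2 of 3 libraries, so that order is within the spread. LYS20 and LYS21, the homocitrate synthases, differed by 1.01-fold and LYS20 was above LYS21 in 1 library of 3.

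Respiratory and mitochondrial isozymes followed the same pattern. CYC1 held 99.9 ± 0.0115% over CYC7, the form of low oxygen, which had 1.16, 0.91 and 0.64 FPKM. COX5A held 97.3 ± 0.247% over COX5B, and the ADP/ATP carrier PET9 98.0 ± 0.297% over AAC1 and AAC3. The proton pump PMA1, at rank 35, had 2697, 4388 and 4180 FPKM and PMA2 had 4.10, 8.42 and 7.37 FPKM. PMA1 is a gene of 2757 bases and was lowest in replicate 1.

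The ammonium permease MEP2, a high-affinity form, held 81.7 ± 0.312% of its family with 625.4, 639.8 and 626.1 FPKM. GDH1, which assimilates ammonium into glutamate, had 2082, 2029 and 2025 FPKM and stood 75.1-fold above GDH2, which releases it. Among catalases, CTA1 (peroxisomal) had 17.3, 15.5 and 16.3 FPKM, above CTT1 (cytosolic, stress-linked) with 5.72, 8.07 and 7.33 FPKM. Both were far below the peroxiredoxin TSA1 at 1978 ± 259 FPKM. The highest of the cytosolic chaperones was CPR1, a cyclophilin, at 1954 ± 414 FPKM, followed by the ribosome-bound SSB2 at 1442 ± 67.0 FPKM. Within chaperone families, SSA2 led the Ssa proteins with 977.9 ± 47.7 FPKM, though only 54.0% of its windows are unique. HSC82 stood 8.11-fold above the heat-linked HSP82, and SSE1 27.1-fold above SSE2.

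Abundant mRNAs shared a coding style. A set of 23 codons, 1 to 2 for each of most amino acids, is known as preferred in yeast because it is common in highly expressed genes and matched by abundant tRNAs. Since the set was drawn historically from such genes, the relation below describes these data and is not an independent finding. The median share of preferred codons was 89.6% in the top 100 genes, 87.3% in genes at 1000 FPKM or more, 53.4% in those at 100 to under 1000, and 46.0% over all 5983 coding genes. Under 1 FPKM it was 45.6%. Across 5670 coding genes at 1 FPKM or more, the Spearman correlation with mean FPKM was 0.53 (0.52 to 0.53 in single libraries); genes are not independent replicates. Length correlated at -0.27.

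The first 40 codons of 2 abundant and 2 quiet mRNAs illustrate the ends of this range. Capitals mark preferred codons. TDH3 has 38 of 40 and RPL3 33 of 40, while SPO11, the endonuclease that starts meiotic recombination, has 20 and IME2, a meiotic kinase, has 17. Not every pair differs so much over this short stretch: the abundant PMA1 has 25 and the quiet FBP1 24, although over the whole gene they have 87.1% and 56.3%. Read 5′ to 3′ in build R64, they lie at chrVII:883691-883810 (TDH3, minus strand), chrXV:444686-444805 (RPL3, plus strand), chrVIII:64038-64157 (SPO11, minus strand) and chrX:221390-221509 (IME2, plus strand).
TDH3: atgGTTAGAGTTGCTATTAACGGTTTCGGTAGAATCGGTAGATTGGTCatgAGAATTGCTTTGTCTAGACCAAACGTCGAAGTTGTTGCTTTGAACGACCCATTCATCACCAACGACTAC
RPL3: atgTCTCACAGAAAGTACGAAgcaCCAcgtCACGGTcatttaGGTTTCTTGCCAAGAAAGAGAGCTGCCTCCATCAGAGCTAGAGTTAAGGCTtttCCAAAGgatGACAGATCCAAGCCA
SPO11: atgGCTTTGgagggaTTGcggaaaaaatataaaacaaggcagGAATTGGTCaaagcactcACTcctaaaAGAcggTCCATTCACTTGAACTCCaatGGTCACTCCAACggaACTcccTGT
IME2: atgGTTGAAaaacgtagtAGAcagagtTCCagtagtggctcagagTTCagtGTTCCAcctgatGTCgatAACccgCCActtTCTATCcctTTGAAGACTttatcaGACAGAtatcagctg

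Some genes went against this relation. GCN4 had the fewest preferred codons among the top 100 coding genes of at least 100 codons, at 56.4%, and SAM2 was next at 77.5%. At the other end were genes under 10 FPKM, taken among those with a standard symbol, at least 100 codons, at least 80% unique windows and no overlap. Those with the most preferred codons were mainly of the seripauperin and hypoxic wall protein families. PAU8 had 87.8% preferred codons and 0.317 FPKM, TIR1 85.4% and 0.487 FPKM, and ANB1, the eIF5A form of low oxygen, 85.9% and 0.653 FPKM. Between isozymes, the highest member had more preferred codons than the next in 47 of 61 families. Introns are rare in yeast. A gene was called spliced where its exonic length is shorter than its span in the annotation. Such genes made up 36.0% of the top 100, against 5.45% of all protein-coding genes and 14.7% of those under 1 FPKM. The rule also takes in gaps too short for an intron, as in YIL082W-A, with 4497 bases from 205635 to 210132 on chromosome IX. Of the coding genes under 1 FPKM, 19 (5.69%) were mitochondrial. The 14.7% is therefore not a share of genes with nuclear introns.

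**Figure D4:**
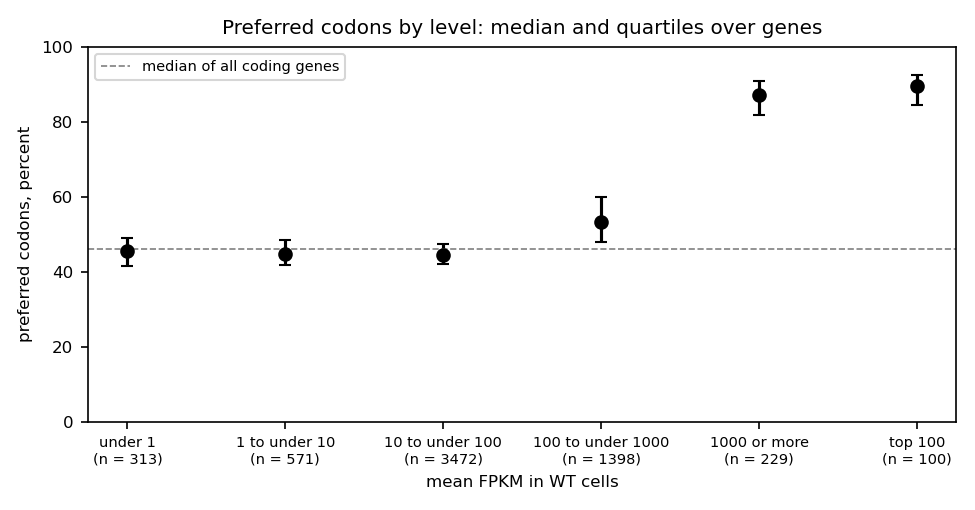
Percent of codons that are preferred, as the median (point) and quartiles (bars) over protein-coding genes in each class of mean FPKM, with the number of genes under each class; the top 100 are also part of the class at 1000 or more. The median is near 45% up to 100 FPKM, 53.4% from 100 to under 1000 FPKM and 89.6% in the top 100.

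At the quiet end, 819 genes had a mean under 1 FPKM, of which 334 were protein-coding, and 439 had 0 counts in all 3 libraries, of which 123 were protein-coding. Taken 1 library at a time, 0 counts leave room for a true expectation of as many as 3 counts, a limit that covers counting error only. tRNA genes and dubious reading frames made up most of the rest. Poly(A) selection depletes RNA without a tail, and its part in these values was not tested. The 8 proteins encoded by the mitochondrial genome were all under 1 FPKM, the highest being OLI1 with 0.34, 0 and 0.94 FPKM.

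Genes for other carbon sources were low but rarely at 0. The 15 genes of the glyoxylate cycle and gluconeogenesis had a median of 6.27 FPKM. FBP1, the fructose bisphosphatase, had 4.77, 4.57 and 5.29 FPKM, PCK1 3.70, 4.48 and 4.15 FPKM and the isocitrate lyase ICL1 14.4, 16.9 and 15.1 FPKM. SFC1, a mitochondrial carrier, was the lowest of them with 0.82, 0.97 and 0.78 FPKM. The glycolysis class had a median of 961.6 FPKM, but its lowest members, such as HXK1 at 6.99 FPKM and PYK2 at 16.0 FPKM, lay in the same range as these genes.

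The galactose genes had a median of 5 FPKM. The structural genes GAL1, GAL10 and GAL7 had means of 5, 5.45 and 1.42 FPKM. Of the regulators, GAL80 (42.3, 40.7 and 41.3 FPKM) and GAL4 (9.94, 10.7 and 10.4 FPKM) were above these, and GAL3 (3.8, 3.33 and 3.89 FPKM) was below GAL1 and GAL10. SUC2, secreted invertase, led the maltose and sucrose genes with 48.5, 53.9 and 56.1 FPKM. Of those 14 genes, 7 have under 80% unique windows, and IMA3, with none, was at 0.

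Meiosis and sporulation genes had a median of 4.31 FPKM, with 7 of 47 (14.9%) under 1 FPKM. The share under 1 FPKM was 5.56% of all protein-coding genes and 11.5% of all genes. SPR6 was the highest of this list at 39.1, 34.2 and 33.4 FPKM, and MEI5, a meiotic recombination factor, the lowest at 0.24, 0 and 0 FPKM. IME1, the master inducer of meiosis, had 5.49, 10.5 and 5.52 FPKM and SPO11 had 5.03, 3.48 and 5.99 FPKM. SPO24, a gene of 204 bases annotated to sporulation but not on the list, was at rank 57 with 3263, 3137 and 2707 FPKM. In a culture, fewer cells of a kind and less RNA per cell cannot be told apart.

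The seripauperins, small wall proteins of low oxygen encoded mostly near chromosome ends, had a median of 0.185 FPKM. Of 24, 16 (66.7%) were under 1 FPKM, against 5.56% of all protein-coding genes. At 0 in all libraries were 7 of the 24, but 17 have under 80% unique windows. The 7 with at least 80% had a median of 5.77 FPKM. Among them, PAU7 had 27.8, 24.2 and 38.1 FPKM and PAU3 had 0. The hypoxic genes had a median of 8.75 FPKM, from PAU24, also a seripauperin, at 0.173 FPKM and DAN1 with 0.44, 0.58 and 0 FPKM to their repressor ROX1 with 108.0, 182.1 and 168.9 FPKM. The flocculins were all under 10 FPKM, with FLO5 the highest at 8.74 FPKM. The COS family ranged widely, from COS8 at 0.153 FPKM to COS6 with 136.2, 141.4 and 131.8 FPKM.

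Marker lists described the cells. Of the a-specific genes 6 of 7 had at least 10 FPKM, a share near the 84.9% of all protein-coding genes. Of the alpha-specific genes 2 of 6 did, though 2 of the 6 have under 80% unique windows. MFA2, an a-factor gene, was at rank 49 with 3816, 2694 and 3071 FPKM, MFA1 had 2869, 1932 and 1971 FPKM and the receptor STE2 554.5, 644.8 and 665.9 FPKM. The alpha-specific genes MF(ALPHA)1 and STE3 averaged 5.09 and 4.49 FPKM. MATALPHA1 and HMLALPHA1 were at 0, but none of their windows is unique, so their levels are uncertain. All 7 biosynthetic marker genes were present, from TRP1 at 57.2 FPKM to MET17 at 2460 FPKM, with URA3 at 176.8, 159.3 and 163.3 FPKM. Of the 20 stationary phase and diauxic genes, 11 had at least 10 FPKM, a smaller share than that of all coding genes. HSP12, a stress-linked membrane protein, had 167.6, 87.7 and 74.4 FPKM and HSP26 106.0, 70.9 and 56.9 FPKM, in each case highest in replicate 1. SPG1 was the lowest at 1.65, 2.89 and 0.38 FPKM.

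The enzymes that the series is built on were modest. PAH1, the phosphatidate phosphatase, had 15.1, 21.5 and 19.1 FPKM, a rank of 4748. DGK1, the diacylglycerol kinase that works in the opposite direction, had 136.4, 122.8 and 131.3 FPKM, a rank of 1305. The phospholipid genes OPI3 and CHO1 were the highest of their list at 934.4 and 583.4 FPKM. INO1, which makes inositol phosphate, had 99.9, 143.9 and 207.5 FPKM, so its highest library was more than 2 times its lowest.

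Many quiet coding genes shared sequence or position with another gene. Of the 334 under 1 FPKM, 159 (47.6%) had under 80% unique windows, against 4.66% of all coding genes. Overlap with another gene was found for 143 (42.8%), against 12.9% of all coding genes. No strand-marking step is named for these libraries, and without one the reads of overlapping genes cannot be told apart. Of 70 coding genes lying wholly inside another gene, 51 were at 0 and 69 were under 1 FPKM. HYP2, the main eIF5A gene, was at 0 in all 3 libraries, while the dubious reading frame YEL034C-A that covers it had 2559, 2400.4 and 2275 FPKM, so the level of HYP2 is uncertain. Of the 12 such genes that are unique and nuclear, 11 were at 0, DID2, NAG1, VAM10 and ADF1 among them. CUP1-1, a metallothionein gene with an identical copy, was also at 0.

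Near chromosome ends, quiet genes were frequent. Within 20 kb of an end lay 25.7% of the coding genes under 1 FPKM, against 4.10% of all coding genes. After removing genes that overlap, have under 80% unique windows or are mitochondrial, 122 quiet coding genes were left, of which 24 were near an end and 32 were at 0. Of these 122, 58 have a standard symbol, including CYC7, ANB1, HXT13, HXT17, HXT10, DAN1, MEI5, CDA2, REC8 and SPS1.

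The spread between the 3 libraries was modest for most genes. The median coefficient of variation, the SD over the mean, was 12.5% over the 6303 genes at 1 FPKM or more and 11.3% over the 5384 at 10 FPKM or more. It depended strongly on replicate 1: between replicates 2 and 3 alone it was 4.42%. Pearson's r of log2(FPKM + 1) over genes was 0.996 between replicates 2 and 3, 0.983 between 1 and 3 and 0.978 between 1 and 2. Replicates 2 and 3 shared 97 of their top 100 genes, replicates 1 and 2 shared 87, and 86 genes were in the top 100 of all 3.

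Replicate 1 deviated with gene length. Its FPKM relative to the mean of replicates 2 and 3 had a median ratio of 1.25 in genes under 300 bases, 1.08 at 500 to under 1000 bases, 0.902 at 1000 to under 2000 bases and 0.717 at 3000 bases or more. Between replicates 2 and 3 the same medians ran from 0.959 to 1.06. Of 5384 genes at 10 FPKM or more, 635 differed by over 1.5-fold between replicate 1 and the others, and 56 between replicates 2 and 3. What part RNA quality or fragment selection has in this was not tested.

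**Figure D5:**
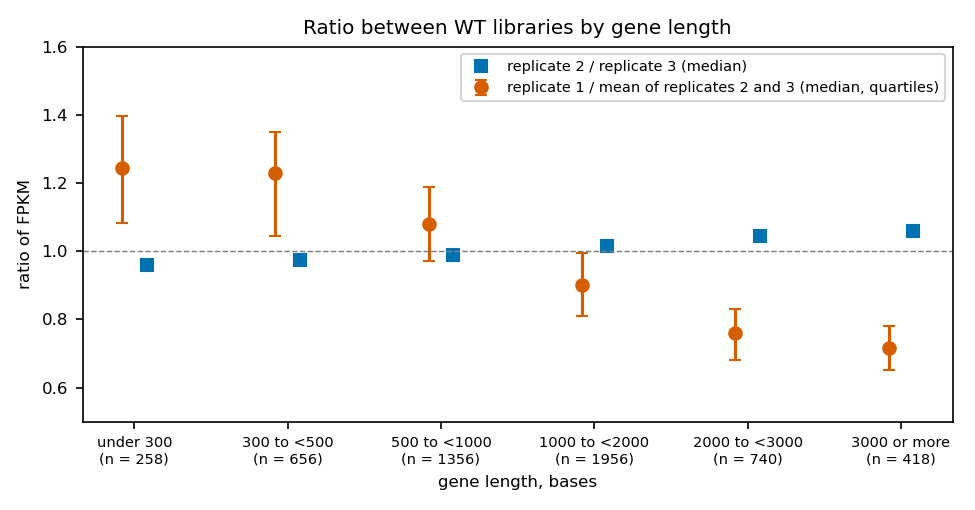
Ratio of FPKM between WT libraries by gene length, for replicate 1 over the mean of replicates 2 and 3 (median, with bars for the quartiles over genes) and for replicate 2 over replicate 3 (median), with the number of genes under each class. The first ratio falls from 1.25 in the shortest genes to 0.717 in the longest, while the second stays between 0.959 and 1.06.

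Among genes at 10 FPKM or more with a standard symbol, BSC1 varied the most, with 7.95, 62.4 and 51.2 FPKM in replicates 1 to 3 and a coefficient of variation of 71.0%. RIM9 followed at 62.8%, with 4.62, 23.4 and 18.6 FPKM, then OPI6 at 60.3%, HHY1 at 59.0%, IRC2 at 55.8% and GPB1 at 53.4%. PMT1 overlaps 81.3% of OPI6, which had 25, 78 and 84 counts. ALT2 overlaps 71.5% of IRC2, which had 19, 56 and 45 counts. What part overlap and low counts have in their spread was not tested. ATG15, RTG1, YJU2 and MTC7 completed the 10, between 48.6% and 51.1%. In 9 of these 10 replicate 1 was the lowest library, and in MTC7 it was the highest, at 257.4 FPKM against 100.4 and 143.3 FPKM. The 10 genes with the smallest coefficients of variation varied by under 1%. They were MCA1, TIM44, YPT1, LCL3, RRP45, ISN1, FRS2, GET1, HIS2 and NOP7, with MCA1 at 131.7, 131.8 and 131.4 FPKM and YPT1, a secretory GTPase, at 489.5, 491.4 and 489.9 FPKM. The median counting error was 2.26% at 100 to under 1000 FPKM and 4.43% at 10 to under 100 FPKM. The 10 values lie below these medians, so they are low extremes among many genes and do not show steadier expression. ZPS1, a wall protein induced by zinc deficiency, differed most between replicates 2 and 3, with 410.8 and 201.0 FPKM.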

How the data were processed

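Poly(A) RNA of 3 WT libraries was analysed, from a table holding all 9 libraries. The deposited read counts are whole numbers per gene with no normalization. The deposited FPKM values equal the count divided by the gene's exonic size and a library total up to 0.0172% above the sum of the count column, recomputed for all 7122 genes. HISAT2 2.2.1, HTSeq 0.6.1 and build R64 are named per the submitters' processing notes; which annotation release, strand setting and rule for multiply matching reads were used is not given in those notes or the labels. Of the gene identifiers, 6045 matched RefSeq of the same build, 6033 of them with equal coordinates. A total of 4 empty lines were left out. Total counts were 9205454 to 12616347 per library.

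Means and SDs were computed over libraries in Python 3 (numpy, pandas), with ranks by mean FPKM. Shares are of the summed FPKM of each library. Windows of 100 bases were called unique where they occur once in the genome on either strand. The computation of levels, spread and uniqueness was tested on simulated data. Genes named are the 25 highest, all members of isozyme families, the extremes of each class, and the 10 largest and 10 smallest coefficients of variation at 10 FPKM or more; only part of these are printed, and QCR8 and KRS1 come from the lowest members of their classes. The members, lists and families were chosen with earlier results of these data known, from textbook knowledge; RPP1, an RNase P subunit wrongly matched to the ribosomal proteins, was taken out after the values were seen. Alternatives were other scalings, averages, filters, lengths and leaving out each library.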

Additional observations from a re-analysis of the deposited data

How the results depend on the processing

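No paired analysis was possible because there is 1 group and no result comes from a test. The 819 genes under 1 FPKM became 452 without overlapping genes and 334 with protein-coding genes only, by construction. The number of genes holding 50% of the sum was 348 with counts scaled by library total but not by length (CPM), against 188. By CPM the ribosomal protein share was 15.9% and the glycolysis share 7.28%. The glycolysis share was 5.46% without overlapping genes, which drops GPM1 and CDC19, and 6.26% with 100 bases added to each length, an alternative chosen after seeing the data. Leaving out 1 library at a time gave 807 to 829 genes under 1 FPKM, 180 to 203 genes for 50% of the sum, ribosomal shares of 29.1% to 31.4%, glycolysis shares of 5.64% to 5.81%, a median coefficient of variation of 4.42% to 14.7% (the lowest without replicate 1) and a TDH3 mean of 16860 to 20025 FPKM. Among 61 isozyme ratios, only that of LYS20 over LYS21 reversed, with -0.033 to 0.041 on the log2 scale when 1 library was left out, and 6 fits moved by more than their SD. CPM gives no FPKM for TDH3, a filter at 1 FPKM gives no count below it, and averages do not bear on the spread. Short reading frames, shared sequence and overlap limit the levels of single genes, and few counts limit those under 1 FPKM, where the median coefficient of variation was 89.6%.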

Other observations

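In 4 places outside the mitochondrial genome and the repeats of chromosome XII, runs of 3 or more neighbouring protein-coding genes had 0 counts in all 3 WT libraries. Genes of other kinds lying between them were not considered. On chromosome III, 5 genes from 307801 to 316188 in build R64 were at 0: PAU3, ADH7, RDS1, AAD3 and YCR108C, all with at least 84.1% unique windows. On chromosome I, YAL067W-A, SEO1 and YAL065C from 2480 to 11951 and TDA8, YAL064W and YAL063C-A from 13363 to 22685 were at 0. On chromosome VIII, ARN2, PAU13 and YHL045W from 8351 to 12849 were at 0. The lowest share of unique windows of a gene was 62.2% in the SEO1 run, 100% in the TDA8 run and 45.1% in the ARN2 run. The reference is not the CEN.PK genome, and whether these genes are present in the strain was not tested. On chromosome XII, the ASP3-2 and ASP3-3 runs were also at 0, but there the sequence is repeated.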
